A study of Canis lupus familiaris with 4 samples.

Results

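Ribosome biogenesis was described through 37 genes: subunits of RNA polymerase I, the enzyme that transcribes ribosomal RNA genes, and factors that modify, cut, fold and assemble the ribosomal RNA into subunits. The members are all probe sets that carry 1 of these gene symbols in the platform annotation. In all, 33 of the 37 genes had at least 1 such probe set, 67 probe sets together, of 15115 genes and 42924 probe sets on the array. RRP9, BOP1, POLR1B and GNL3 had none under their symbol. The choice of members used no measured value, but it was made with earlier results of these data known.

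Samples were 4 Affymetrix arrays of MDCKII cells, an established epithelial line from dog kidney, with 1 array for each of 4 groups. By their labels, these were HIF1A knockdown (KD) cells in hypoxia, HIF1A wild-type (WT) cells in hypoxia, KD cells in normoxia and WT cells in normoxia. All cells first spent 24 h in normoxia and then 24 h in hypoxia or in normoxia, and the study asked how low oxygen and HIF1A, a transcription factor subunit that is stabilised when oxygen is low, change gene expression. The sources used here do not say how the knockdown was made, whether it is 1 clone or which oxygen level was used.

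A growing cell makes most of its RNA in the nucleolus. RNA polymerase I makes a long precursor, small nucleolar ribonucleoproteins (snoRNPs) guide its chemical modification, the small-subunit processome starts the cuts that release the small-subunit RNA, and separate sets of factors carry the pre-40S and pre-60S particles to the cytoplasm. Many of these genes are known targets of MYC, and ribosome production is known as one of the costly processes that cells reduce when energy or oxygen is short.

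Intensity per probe set is the authors' deposited value on a linear scale, and differences below are of log2(intensity + 16), so they understate the change of dim genes. A gene was read from its probe set with the highest mean, and it was kept if its highest array reached the median of all values, an intensity of 46.3. This floor kept 9834 genes and 32 of the 33 members. The member left out was NOC4L, a processome protein, which read 32.2 in KD hypoxia, 20.1 in WT hypoxia, 29.7 in KD normoxia and 21.1 in WT normoxia. Each group is a single array, so no difference between 2 arrays can be set against a spread between replicates, and the small number of arrays limits how precise any value is.

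HIF1A mRNA followed the oxygen label and hardly the knockdown label. It read 625 in labelled KD hypoxia against 675 in labelled WT hypoxia, and 3435 in labelled KD normoxia against 3651 in labelled WT normoxia. KD minus WT was -0.11 in hypoxia and -0.09 in normoxia, and the genotype term did not pass (-0.10, adjusted p = 0.494 by limma), while HIF1A fell by 2.42 in the oxygen term (adjusted p = 4.44e-07 by limma). The arrays low in HIF1A were thus the 2 labelled hypoxia and not the 2 labelled KD, so WT, KD, hypoxia and normoxia below are only the labels of arrays. Mean intensity, with 2% of values left out at each end, was 310.5 to 314.9 over the 4 arrays. Of 9 epithelial markers with a probe set, 8 were above the floor in all 4 arrays, with a summed intensity of 35600 to 36790, while all 6 fibroblast markers were below the floor (sum 70.9 to 79.9). Endothelial markers summed to 176 to 267 (2 of 4 kept) and immune markers to 264 to 323 (2 of 3 kept).

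The array labelled KD normoxia held the lowest value of the 4 arrays for 22 of 32 members, whereas 31.0% of all genes kept had their lowest value there. It held the highest value for 2 members, POLR1A and NOC2L (all genes 26.4%). POLR1A was at the floor and reached it only in labelled WT hypoxia and labelled KD normoxia. Its counts here and below carry no size that can be relied on. For the other members the lowest value lay in labelled KD hypoxia for 6 (all genes 23.4%), in labelled WT normoxia for 3 (all genes 21.8%) and in labelled WT hypoxia for 1 (all genes 23.8%). Against labelled WT normoxia, 26 of 32 members were lower (all genes 51.6%) and 6 higher in labelled KD normoxia. The median difference was -0.25 over the members and -0.01 over all genes. A log2 difference of 0.32 or more, the smallest size counted here, was seen downward in 10 of 32 members (all genes 12.5%) and upward in POLR1A alone (all genes 11.8%). NOB1 and WDR74 were at least 1.5-fold lower (all genes 2.82%), and 0 members were 2-fold lower (all genes 0.325%). Shares of all genes, here and below, are not matched for intensity to the members or lists beside them. A floor at the 75th percentile would keep 29 of the 32 members but 5398 of the 9834 genes.

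**Figure D1:**
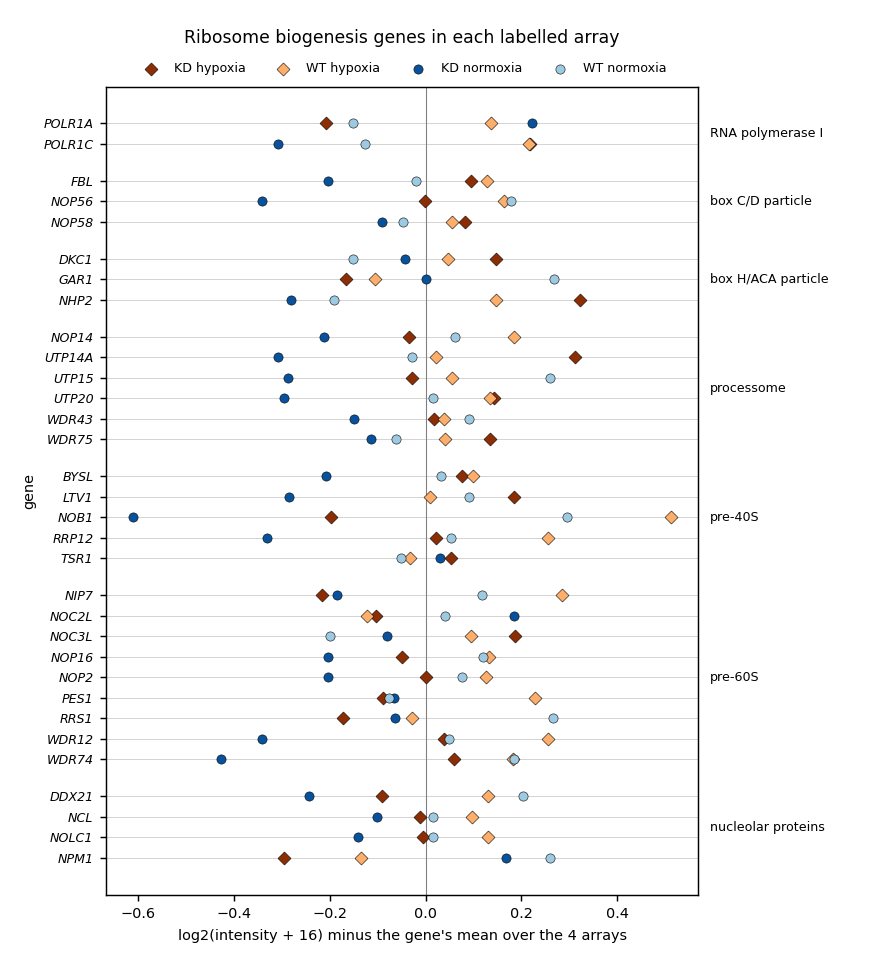
Each gene's log2(intensity + 16) minus its own mean over the 4 arrays, for the 32 members kept, grouped by role; diamonds are arrays labelled hypoxia and circles arrays labelled normoxia, dark for KD and pale for WT. The dark circle, labelled KD normoxia, is leftmost in 22 of 32 rows.

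Within labelled hypoxia the members differed less by genotype label. Of 32 members, 21 were lower (all genes 52.1%) and 11 higher in KD cells, with a median of -0.10. Those lower by at least 0.32 were the 3 genes NOB1, NIP7 and POLR1A, the last at the floor (all genes 11.5%). By as much, 0 were higher (all genes 10.7%). NOB1 was the 1 member at least 1.5-fold lower (all genes 2.59%), and 0 were 2-fold lower (all genes 0.356%). The KD minus WT pairs in hypoxia and in normoxia share no array. In both, 19 of 32 members were lower (all genes 35.1%) and 4 were higher (all genes 31.4%), and NOB1 was the 1 member lower by at least 0.32 in each (all genes 4.28%).

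Labelled hypoxia exceeded labelled normoxia for most members in both genotypes. In KD cells 25 of 32 were higher (all genes 52.5%), with a median of 0.20 against 0.02 over all genes. Higher by at least 0.32 were 10 members (all genes 13.4%). Lower by as much were NPM1 and POLR1A, 2 members, of which POLR1A was at the floor (all genes 13.1%). UTP14A and NHP2 were the 2 members at least 1.5-fold higher (all genes 3.41%). In WT cells 22 of 32 were higher (all genes 52.4%) and the median was 0.09. There NHP2 and POLR1C were the 2 members higher by at least 0.32 (all genes 10.8%), and NPM1 and GAR1 the 2 lower by as much (all genes 10.7%). At 1.5-fold higher in WT cells there were 0 members (all genes 3.34%), and at 2-fold higher 0 in KD (all genes 0.559%) and 0 in WT cells (all genes 0.600%).

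The hypoxia minus normoxia pairs in KD and in WT cells share no array either. In both, 19 of 32 members were higher (all genes 35.6%) and 4 lower (all genes 30.7%). NHP2 and POLR1C were the 2 members higher by at least 0.32 in each pair (all genes 4.88%), and NPM1 was the 1 member lower by as much (all genes 4.58%). The array labelled KD normoxia is in both the KD minus WT pair in normoxia and the hypoxia minus normoxia pair in KD cells, so these 2 sets of values are not independent. Each of the other arrays likewise serves 1 genotype pair and 1 oxygen pair.

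**Figure D2:**
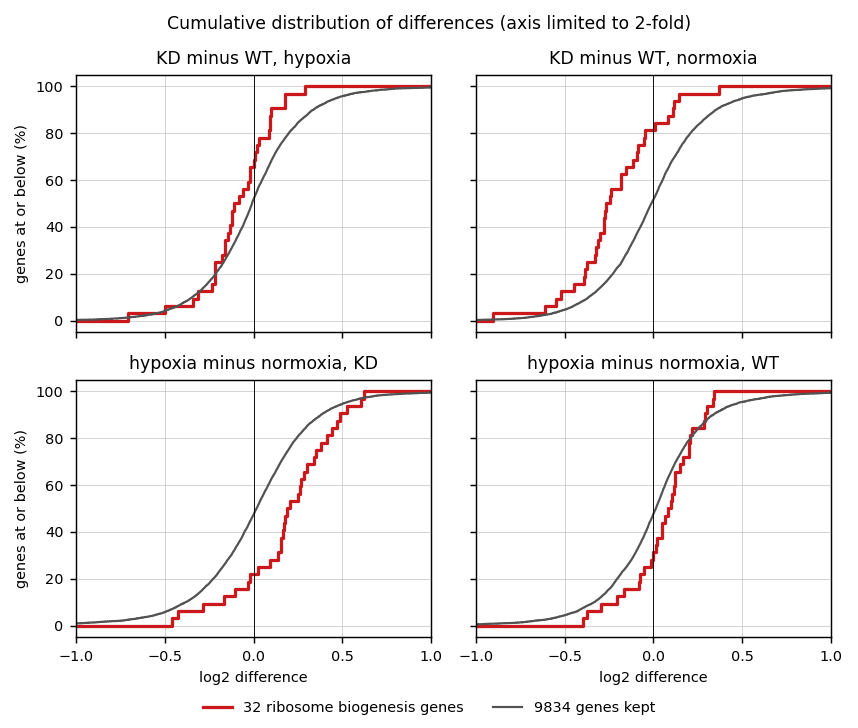
Cumulative share of genes (percent) against the log2 difference, for the 32 members kept (red) and all 9834 genes kept (grey), in 4 pairs of labelled arrays. The red curve lies left of the grey one over most of its course for KD minus WT in normoxia (medians -0.25 and -0.01) and right of it for hypoxia minus normoxia in KD cells (medians 0.20 and 0.02).

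A test was possible only in a model that adds a genotype term and an oxygen term. It was fitted to the 4 arrays with limma over the 9834 genes, two-sided, with Benjamini-Hochberg adjustment at 0.05. In its genotype term 2 of 32 members fell, NOB1 and NIP7 (all genes 2.43%), and 0 rose (all genes 2.94%). At an unadjusted p under 0.05, 13 members were lower (all genes 11.6%) and 0 higher (all genes 10.8%) in that term. In its oxygen term 2 members rose, NHP2 and POLR1C (all genes 4.72%), and 1 fell, NPM1 (all genes 4.17%). At an unadjusted p under 0.05, 12 were higher (all genes 13.1%) and 2 lower (all genes 10.7%). The model has 1 residual degree of freedom, so its p-values rest mostly on a prior of 8.11 degrees of freedom from other genes and not on a spread between cultures. Without the intensity trend in that prior it called 0 members in either term.

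Among proteins that mature the small subunit, NOB1, the nuclease that makes the last cut at the end of 18S ribosomal RNA, differed most of all members. It read 997 in labelled KD hypoxia against 1642 in labelled WT hypoxia, and 745 in labelled KD normoxia against 1410 in labelled WT normoxia. Both KD arrays were below both WT arrays. KD minus WT was -0.71 in hypoxia and -0.91 in normoxia, and NOB1 fell by 0.81 in the limma genotype term (SE 0.09, adjusted p = 0.00242, lower in 2 of 2 pairs). It has a single probe set on the array, of the kind that Affymetrix marks as able to match several transcripts.

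The other pre-40S factors moved by smaller amounts. RRP12, a HEAT-repeat protein known in yeast to act in export of both subunits, read 1134 in labelled KD hypoxia against 1336 in labelled WT hypoxia, and 884 in labelled KD normoxia against 1159 in labelled WT normoxia. LTV1, a pre-40S assembly factor, read 1645 against 1454 in hypoxia (KD against WT) and 1183 against 1538 in normoxia. For LTV1 only the labelled KD normoxia array was low, at -0.37 against labelled WT normoxia. BYSL, known as bystin and needed for 18S RNA processing, read 715 in labelled KD hypoxia, 726 in labelled WT hypoxia, 584 in labelled KD normoxia and 694 in labelled WT normoxia. TSR1, a GTPase-like pre-40S factor, stayed between 140 and 151 in all 4 arrays with this probe set. A second TSR1 probe set read 134 in labelled KD hypoxia against 81.3 in labelled WT hypoxia, a difference of 0.62 where the leading probe set gave 0.08.

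Of the processome members, all 6 kept had their lowest value in the array labelled KD normoxia, as did 16 of the 26 other members and 31.0% of all genes. All 6 were below labelled WT normoxia (all genes 51.6%), with a median of -0.28. UTP15, a processome protein required for ribosomal RNA transcription in yeast, read 998 in labelled KD hypoxia against 1059 in labelled WT hypoxia, and 832 in labelled KD normoxia against 1222 in labelled WT normoxia. Its KD minus WT difference was -0.08 in hypoxia and -0.55 in normoxia. A second UTP15 probe set gave -0.29 in hypoxia and -0.51 in normoxia, so the size in hypoxia rests on which probe set is read. UTP20, a very large HEAT-repeat protein, read 1240 against 1233 in hypoxia (KD against WT) and 911 against 1134 in normoxia. UTP14A, which in yeast activates a processome helicase, read 666 in labelled KD hypoxia against 542 in labelled WT hypoxia, and 428 in labelled KD normoxia against 523 in labelled WT normoxia. UTP14A was thus higher in labelled KD cells in hypoxia (0.29) and lower in normoxia (-0.28).

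The remaining processome members differed less. NOP14 read 858 in labelled KD hypoxia, 1001 in labelled WT hypoxia, 758 in labelled KD normoxia and 919 in labelled WT normoxia, so that each KD array was below its WT partner. WDR43, which joins the processome early with the ribosomal RNA transcript, had differences of -0.02 in hypoxia and -0.24 in normoxia (KD minus WT). WDR75, of the same early subcomplex, had 0.09 and -0.05. For hypoxia minus normoxia, all 6 were higher in labelled KD cells (median 0.25), where 52.5% of all genes were higher. In labelled WT cells 4 were higher and 2 lower (median 0.08), where 52.4% of all genes were higher.

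**Figure D3:**
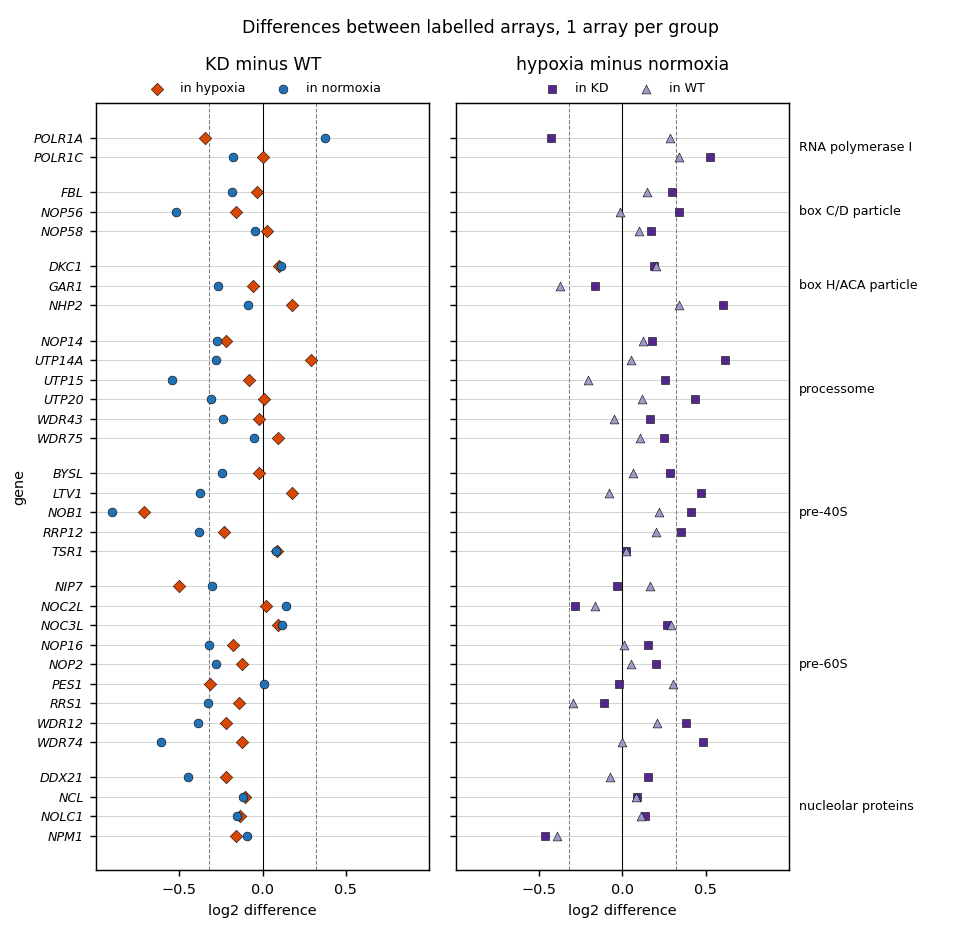
Log2 differences of the 32 members kept, with KD minus WT on the left (diamonds in hypoxia, circles in normoxia) and hypoxia minus normoxia on the right (squares in KD, triangles in WT); dashed lines mark 0.32 in either direction. NOB1 is the leftmost circle and diamond, at -0.91 and -0.71, and NPM1 lies left of both 0 and the dashed line in both genotypes.

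Pre-60S assembly factors were more mixed. NIP7, which acts with other factors in maturation of the large subunit, read 784 in labelled KD hypoxia against 1117 in labelled WT hypoxia, and 802 in labelled KD normoxia against 993 in labelled WT normoxia. Both KD arrays were below both WT arrays, as for NOB1. NIP7 fell by 0.40 in the limma genotype term (SE 0.09, adjusted p = 0.0410, lower in 2 of 2 pairs). Its 2 further probe sets gave -0.60 and -0.47 in hypoxia and -0.33 and -0.21 in normoxia.

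WDR74, a WD-repeat protein of early pre-60S particles, read 879 in labelled KD hypoxia against 959 in labelled WT hypoxia, and 623 in labelled KD normoxia against 960 in labelled WT normoxia. The array labelled KD normoxia stood below the other 3, at -0.61 against labelled WT normoxia, and a second WDR74 probe set gave -0.50. WDR12, which forms the PeBoW complex with PES1 and BOP1, read 579 against 676 in hypoxia (KD against WT) and 441 against 583 in normoxia. PES1 itself gave -0.32 in hypoxia and 0.01 in normoxia, and its second probe set gave 0.25 and -0.23, so the probe sets of PES1 had opposite signs in both pairs.

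NOP2, a methyltransferase of 28S ribosomal RNA, read 1504 in labelled KD hypoxia against 1641 in labelled WT hypoxia, and 1302 in labelled KD normoxia against 1583 in labelled WT normoxia. All 3 of its probe sets were lower in labelled KD cells in both pairs, by 0.28 to 0.38 in normoxia. NOP16, a small nucleolar protein known as a MYC target, had KD minus WT differences of -0.18 in hypoxia and -0.32 in normoxia. RRS1, a factor that in yeast brings the 5S particle to the pre-60S, read 177 in labelled KD hypoxia, 198 in labelled WT hypoxia, 193 in labelled KD normoxia and 246 in labelled WT normoxia. In RRS1 the array labelled WT normoxia stood above the other 3.

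NOC2L and NOC3L are partners in the transport of pre-60S particles in yeast. With their leading probe sets both were higher in labelled KD than in labelled WT normoxia, unlike most members. NOC2L read 385 in labelled KD hypoxia, 380 in labelled WT hypoxia, 473 in labelled KD normoxia and 427 in labelled WT normoxia, with its highest value in the array that was lowest for most members. NOC3L read 1366 against 1281 in hypoxia (KD against WT) and 1132 against 1042 in normoxia with its leading probe set, a difference of 0.12 in normoxia. Its 3 further probe sets above the floor gave -0.50, -0.46 and -0.43 in normoxia, so the sign of NOC3L in that pair rests on which probe set is read. For hypoxia minus normoxia its leading probe set was higher in KD (0.27) and in WT cells (0.29), as for most members.

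The core of the box C/D snoRNP, which guides ribose methylation, has FBL as its methyltransferase and NOP56 and NOP58 as its scaffold. NOP56 read 3254 in labelled KD hypoxia against 3646 in labelled WT hypoxia, and 2566 in labelled KD normoxia against 3684 in labelled WT normoxia. With this probe set each KD array of NOP56 was below both WT arrays, at -0.16 in hypoxia and -0.52 in normoxia. The genotype term of NOP56 did not pass (-0.34, adjusted p = 0.0547 by limma). A dimmer probe set gave -0.54 in hypoxia and -0.52 in normoxia. Both probe sets passed the genotype test when limma was fitted to every probe set. The call of NOP56 thus depended on the fit, and without the intensity trend it was absent. FBL read 5447 against 5569 in hypoxia (KD against WT) and 4427 against 5023 in normoxia. NOP58 stayed between 4338 and 4892, and its 3 probe sets gave -0.08 to -0.04 in normoxia. The scaffold partners NOP56 and NOP58 thus gave -0.52 and -0.04 in the same pair of arrays.

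The box H/ACA snoRNP, which guides pseudouridine formation, has DKC1 as its enzyme and also serves telomerase. NHP2, a core protein, read 5043 in labelled KD hypoxia against 3317 in labelled KD normoxia, and 4467 in labelled WT hypoxia against 3530 in labelled WT normoxia. Both hypoxia arrays were above both normoxia arrays. NHP2 rose by 0.47 in the limma oxygen term (SE 0.07, adjusted p = 0.00433, higher in 2 of 2 pairs), and its second probe set gave 0.64 in KD and 0.41 in WT cells. GAR1, another core protein, differed the other way at -0.17 in KD and -0.37 in WT cells, with 716 in labelled KD hypoxia, 747 in labelled WT hypoxia, 805 in labelled KD normoxia and 972 in labelled WT normoxia. DKC1 differed by 0.19 in KD and 0.20 in WT cells. NHP2 and GAR1, parts of 1 particle, therefore differed in opposite directions, and GAR1 did not pass the test (adjusted p = 0.119 by limma).

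Of the RNA polymerase I subunits, POLR1C, which RNA polymerase III also uses, read 1995 in labelled KD hypoxia against 1381 in labelled KD normoxia, and 1991 in labelled WT hypoxia against 1567 in labelled WT normoxia. The hypoxia arrays were above the normoxia arrays. POLR1C rose by 0.43 in the limma oxygen term (SE 0.08, adjusted p = 0.0111, higher in 2 of 2 pairs), and its second bright probe set gave 0.57 in KD and 0.35 in WT cells. POLR1A, the largest catalytic subunit, read 37.0 in labelled KD hypoxia, 51.3 in labelled WT hypoxia, 55.4 in labelled KD normoxia and 39.1 in labelled WT normoxia. It was at the floor, above it in 2 of 4 arrays, so its differences are given without a size that can be relied on.

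The 4 abundant nucleolar proteins kept were all lower in labelled KD cells in both pairs (all genes 35.1%), with medians of -0.15 in hypoxia and -0.14 in normoxia, and DDX21 stood furthest out at -0.45 in normoxia. NPM1, a nucleolar chaperone and assembly factor, read 2666 in labelled KD hypoxia against 3680 in labelled KD normoxia, and 2982 in labelled WT hypoxia against 3923 in labelled WT normoxia. Both hypoxia arrays were below both normoxia arrays, opposite to most members. NPM1 fell by 0.43 in the limma oxygen term (SE 0.06, adjusted p = 0.00341, lower in 2 of 2 pairs). It has a single probe set under this symbol, and mammalian genomes carry many near-identical copies of NPM1 that such a probe set may also read.

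DDX21, an RNA helicase that links RNA polymerase I transcription with processing, read 1439 in labelled KD hypoxia against 1680 in labelled WT hypoxia, and 1293 in labelled KD normoxia against 1769 in labelled WT normoxia. Each KD array was below both WT arrays, but the genotype term did not pass (-0.33, adjusted p = 0.0566 by limma). When limma was fitted to every probe set, the leading DDX21 probe set passed and the dimmer one did not. The call of DDX21 thus depended on the fit, and without the intensity trend it was absent. NCL, or nucleolin, a chromatin and RNA binding protein, read 8281 against 8931 in hypoxia (KD against WT) and 7778 against 8433 in normoxia. NOLC1, a snoRNP chaperone, read 5073 against 5569 and 4615 against 5144 in the same order. With these probe sets each KD array of NCL and NOLC1 was below its WT partner by 0.11 to 0.16. A second NCL probe set read 4627 in labelled KD hypoxia against 5455 in labelled WT hypoxia, and 3877 in labelled KD normoxia against 5030 in labelled WT normoxia. Its differences were larger, at -0.24 in hypoxia and -0.37 in normoxia, and it passed the genotype test when limma was fitted to every probe set (-0.31, SE 0.06, adjusted p = 0.00623), while the leading NCL probe set did not (adjusted p = 0.175 by limma in that fit).

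Further probe sets give a second reading of the same RNA, though not a replicate. Above the floor in all 4 arrays were 30 further probe sets of 21 members. The shares of all genes below are of leading probe sets, and no share over all further probe sets is given. For KD minus WT in normoxia, 28 of the 30 were lower (all genes 51.6%), with a median of -0.23. Of the 30, 23 had the sign of the leading probe set, and the median gap to it was 0.09. For KD minus WT in hypoxia, 22 of 30 were lower (all genes 52.1%, median of the 30 -0.11) and 19 had the same sign. For hypoxia minus normoxia, 26 of 30 were higher in KD cells (all genes 52.5%, median of the 30 0.25). In WT cells 23 of 30 were higher (all genes 52.4%, median of the 30 0.12). RRP12, with -0.38 in its leading probe set in normoxia, had -0.06 and 0.06 in its 2 dimmer ones.

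**Figure D4:**
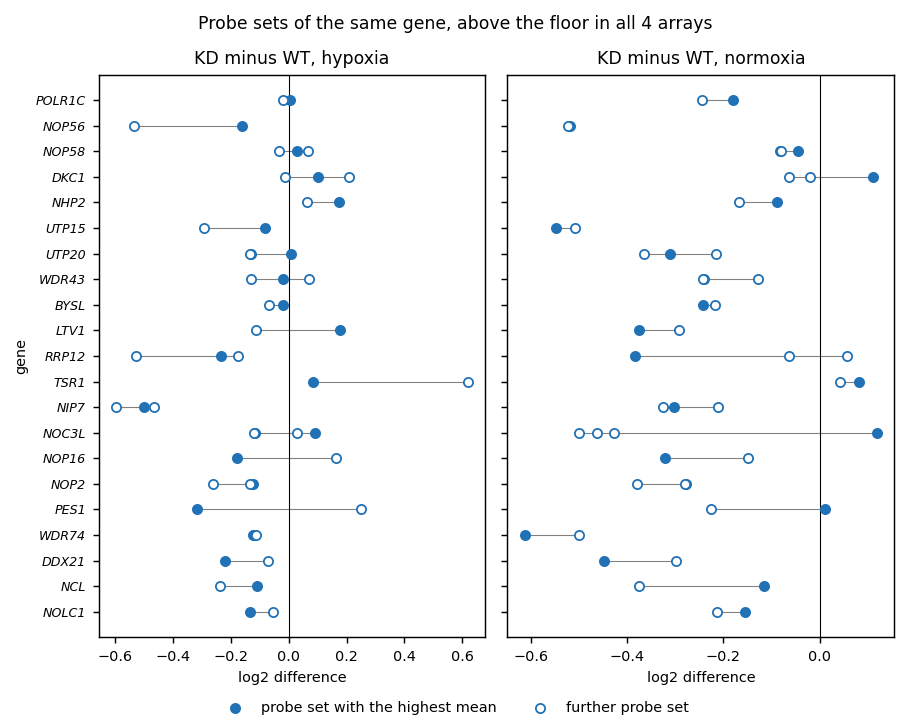
KD minus WT log2 difference of every probe set above the floor in all 4 arrays, for the 21 members with at least 2 such probe sets, in hypoxia (left) and normoxia (right); filled points are the probe set with the highest mean and open points further ones. In normoxia 28 of the 30 open points lie left of 0, and the filled point of NOC3L (0.12) lies apart from its open points (-0.50 to -0.43).

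The hypoxia minus normoxia difference of WT cells, less the same difference of KD cells, was below 0 in 25 of 32 members (all genes 51.0%), with a median of -0.15. It was at or beyond 0.32 downward in 5 members (all genes 11.4%). Upward it was so in PES1 and POLR1A, 2 members, of which POLR1A was at the floor (all genes 12.6%). The widest values among members above the floor in all arrays were those of UTP14A (-0.57), LTV1 (-0.55), WDR74 (-0.49) and UTP15 (-0.46). Second probe sets gave smaller values, at -0.18 for LTV1, -0.39 for WDR74 and -0.22 for UTP15, and UTP14A has no second one. The difference of the responses uses all 4 arrays once each and has no test. If the arrays labelled KD normoxia and WT hypoxia changed places, this difference would keep its value, and KD minus WT in normoxia would become hypoxia minus normoxia in WT cells. The limma terms would then trade their values: the calls of NOB1, NIP7 and MYC would be falls in the oxygen term, and those of NHP2, POLR1C and NPM1 would be rises and a fall in the genotype term. The deposited labels were used throughout, and whether the arrays were exchanged was not tested.

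Of 9 genes read to check the labels, HIF1A and 8 genes known to respond to hypoxia, 7 had their highest value in the array labelled KD normoxia. For KD minus WT in normoxia 7 of the 9 were higher, 6 of them by at least 0.32, and 2 lower. ADM, a vasodilator peptide known as a HIF target, read 2017 in labelled KD hypoxia against 941 in labelled WT hypoxia, and 4486 in labelled KD normoxia against 563 in labelled WT normoxia. PDK1, a kinase that holds back pyruvate oxidation, read 927 against 455 in hypoxia (KD against WT) and 3568 against 488 in normoxia. Both were highest in labelled KD normoxia, whereas VEGFA, the vascular growth factor, lay between 2281 and 2428 in all 4 arrays. The part of these genes in the members' values was not tested. MYC read 793 in labelled KD hypoxia against 1018 in labelled WT hypoxia, and 747 in labelled KD normoxia against 994 in labelled WT normoxia. MYC fell by 0.38 in the limma genotype term (SE 0.09, adjusted p = 0.0418). In these bulk samples fewer cells of a type and less RNA per cell cannot be told apart.

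Other genes of ribosome production were read from lists chosen by known role. Of 91 other biogenesis factors 79 were kept, and 62 of them were lower in labelled KD normoxia than in labelled WT normoxia (all genes 51.6%), with a median of -0.18. Lower by at least 0.32 were 12 of 79, near the share of all genes (12.5%). In hypoxia 50 of 79 were lower in KD cells (all genes 52.1%), with a median of -0.04. GTPBP4, a GTPase of pre-60S particles, and PNO1, a partner of NOB1 in pre-40S particles, were the 2 of 79 that fell in the limma genotype term, near the share of all genes (2.43%), and 0 rose (all genes 2.94%). GTPBP4 read 2437 against 2832 in hypoxia (KD against WT) and 1934 against 2642 in normoxia. PNO1, named after its value was seen, fell by 0.23 (SE 0.05, adjusted p = 0.0449 by limma).

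With labelled hypoxia, 7 of the 79 rose (all genes 4.72%) and 1 fell (all genes 4.17%) in the limma oxygen term. TEX10, of a complex that acts on pre-60S particles, read 1652 in labelled KD hypoxia against 786 in labelled KD normoxia, and 1779 in labelled WT hypoxia against 947 in labelled WT normoxia. Both hypoxia arrays were above both normoxia arrays. TEX10 rose by 0.98 (SE 0.09, adjusted p = 0.000245 by limma), and DDX47, a helicase, rose by 0.43 (adjusted p = 0.0114 by limma). NOL10 fell by 0.41 (adjusted p = 0.0430 by limma).

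Of 9 other RNA polymerase I factors kept, 7 were lower in KD cells in normoxia (all genes 51.6%) and 5 in hypoxia (all genes 52.1%). In the genotype term 2 of the 9 fell, TAF1D and POLR1F (all genes 2.43%). POLR1E was the 1 that rose in the oxygen term (all genes 4.72%). TAF1D, part of the promoter factor SL1, read 1929 in labelled KD hypoxia against 2588 in labelled WT hypoxia, and 1674 in labelled KD normoxia against 2275 in labelled WT normoxia. It fell by 0.43 (SE 0.07, adjusted p = 0.0131 by limma). POLR1F, a stalk subunit, fell by 0.34 (SE 0.07, adjusted p = 0.0314 by limma). POLR1E, which with POLR1G forms a subcomplex on RNA polymerase I, read 878 in labelled KD hypoxia against 387 in labelled KD normoxia, and 831 in labelled WT hypoxia against 495 in labelled WT normoxia. POLR1E rose by 0.94 (SE 0.12, adjusted p = 0.00145 by limma), while POLR1G differed by -0.04 in KD and -0.27 in WT cells.

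In the RNA exosome, the nuclease that trims the 5.8S precursor, 10 of 13 genes were lower in labelled KD normoxia than in labelled WT normoxia (all genes 51.6%, list median -0.13). EXOSC3 rose by 0.91 in the oxygen term (adjusted p = 0.00122 by limma) and EXOSC8 by 0.51 (adjusted p = 0.00800 by limma). They were the 2 of 13 that rose in that term (all genes 4.72%), and 0 fell (all genes 4.17%). Genes for snoRNP assembly gave 7 of 9 lower in the same pair (all genes 51.6%, list median -0.14), with 0 calls by limma in either term. Of these 9, 1 gene, NOP10, is also among the other biogenesis factors. RNA polymerase III genes gave 10 of 16 lower in that pair (all genes 51.6%, list median -0.15). In the genotype term 1 of the 16 fell (all genes 2.43%). In the oxygen term 2 of the 16 rose (all genes 4.72%) and 1 fell (all genes 4.17%). The 1 that fell was GTF3A, the factor that binds 5S ribosomal RNA genes, by 0.57 (adjusted p = 0.00181 by limma). Ribosomal protein genes, the products that these factors assemble, had the median closest to all genes in this pair (-0.04 against -0.01). By sign 40 of 51 were lower (all genes 51.6%), and 0 were lower by at least 0.32 (all genes 12.5%).

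**Figure D5:**
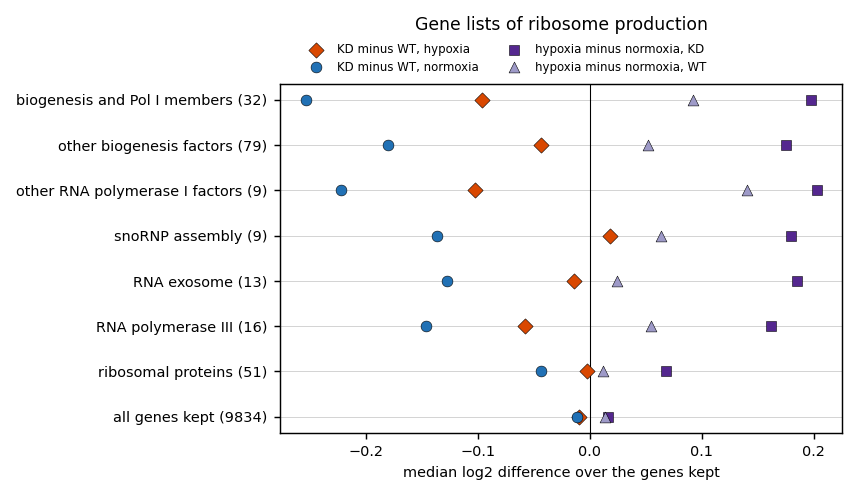
Median log2 difference over the genes kept (number in brackets) for lists of ribosome production and for all genes kept, in 4 pairs of labelled arrays, with diamonds and circles for KD minus WT and squares and triangles for hypoxia minus normoxia. For KD minus WT in normoxia the medians are -0.25 for the members, -0.18 for the other biogenesis factors, -0.04 for ribosomal proteins and -0.01 for all genes.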

How the data were processed

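Total RNA (100 ng) was labelled with the 3' IVT Express kit and read on 4 arrays, per the labels' protocols. The authors deposited 1 linear intensity per probe set. Which software and scaling made these deposited intensity values is not given in the sources used here. Differences were taken of log2(intensity + 16) of the deposited values. Of 42924 probe sets, 29254 had 1 gene symbol in GEO's platform annotation, 439 several and 13231 none, and 3 of the 439 include a member's symbol and were not used. By gene ID, 27680 were found in RefSeq's table of the German Shepherd assembly, with 0 symbols changed. A build is not given, so no coordinates are printed. The additive model was fitted with limma 3.58.1 in R 4.3.3, with a prior variance that follows intensity, and tested on simulated data. Tables were made with Python 3.11.15 and pandas 2.3.3.

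The members and lists were chosen with earlier results of these data known. Members could all be named. From other lists, the 3 genes with the largest absolute difference and the 3 brightest in a comparison could be named. Alternatives were 3 other scalings, pseudocounts of 1 and 64, the median over probe sets, 3 other floors, thresholds of 1.5-fold and 2-fold, and 3 other limma fits.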

Additional observations from a re-analysis of the deposited data

Results flagged for a closer look

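Opposite signs of a labelled difference were found in 14 of the 31 members above the floor in all 4 arrays. No test of these differences exists with a single array per group, so they were not tested. Small values of either sign are common: 31.8% of 8283 genes above the floor in all arrays had opposite signs for oxygen and 31.8% for genotype, against 25.8% of the members for each.

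For labelled hypoxia minus normoxia, 8 members had opposite signs in WT and KD cells, given as the WT response minus the KD response. Lower in WT and higher in KD cells were NOP56 (-0.36), UTP15 (-0.46), WDR43 (-0.22), LTV1 (-0.55), WDR74 (-0.49) and DDX21 (-0.23). Higher in WT and lower in KD cells were NIP7 (0.20) and PES1 (0.33). These signs are of the leading probe sets, and some rest on a difference near 0. In WT cells WDR74 differed by -0.0025 and NOP56 by -0.015. In KD cells PES1 differed by -0.022 and NIP7 by -0.031. Further probe sets above the floor were higher with labelled hypoxia in both genotypes for NOP56, LTV1, WDR74 and DDX21. They kept opposite signs for UTP15, WDR43 and NIP7, and had them reversed for PES1.

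For labelled KD minus WT, 8 members had opposite signs in hypoxia and normoxia, given as hypoxia minus normoxia. Higher in KD cells in hypoxia and lower in normoxia were POLR1C (0.18), NOP58 (0.072), NHP2 (0.26), UTP14A (0.57), UTP20 (0.32), WDR75 (0.14) and LTV1 (0.55). The opposite held for PES1 (-0.33), whose 2 probe sets disagree in sign. Here too some signs rest on a KD minus WT difference near 0. In hypoxia POLR1C differed by 0.003, UTP20 by 0.008 and NOP58 by 0.027, and in normoxia PES1 by 0.01. Further probe sets above the floor were lower in KD cells in both pairs for POLR1C, UTP20 and LTV1. That of NHP2 kept opposite signs, those of NOP58 disagreed, and UTP14A and WDR75 have no further probe set.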

How the results depend on the processing

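The 5 member medians kept their sign and moved by less than 0.1 under all 9 alternatives for scaling, pseudocount, probe set choice and floor. They spanned -0.27 to -0.23 for KD minus WT in normoxia, -0.12 to -0.06 in hypoxia, 0.18 to 0.25 for hypoxia minus normoxia in KD cells, 0.06 to 0.11 in WT cells and -0.18 to -0.15 for the difference of the responses. Counts by sign stayed within 1.5 times, with 26 to 30 members lower for KD minus WT in normoxia and 19 to 26 in hypoxia.

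Counts past a log2 difference of 0.32 moved in some settings. Members lower in KD hypoxia numbered 6 with the median over probe sets, against 3. Members higher with hypoxia in WT cells numbered 1 after quantile normalization or cyclic loess and 4 with a pseudocount of 1, against 2. At 1.5-fold the counts were 2 and 1 for lower in KD (normoxia, hypoxia) and 2 and 0 for higher with hypoxia (KD, WT), and at 2-fold 0 in each.

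Calls by limma depended on the fit. In the genotype term 2 members were called, against 7 with quantile normalization, 5 with cyclic loess, the median over probe sets or a robust trend, 4 with a pseudocount of 1 or 64, 9 of 63 probe sets, and 0 without the floor or without the trend. In the oxygen term 3 were called, against 10 with quantile normalization or over probe sets, 5 with median centring, cyclic loess or a pseudocount of 64, 7 with the median over probe sets or a robust trend, 6 with a floor at the 75th percentile, and 0 without the floor or the trend. Over all genes the genotype term called 528, against 1311 with quantile normalization, 932 with cyclic loess, 820 with a robust trend, 1435 probe sets, and 0 without the floor or the trend. The oxygen term called 874, against 1517 with quantile normalization, 1653 probe sets, 77 without the floor and 7 without the trend. NOB1 and NIP7 in the genotype term, and NHP2, POLR1C and NPM1 in the oxygen term, were lost only without the floor or without the trend among these settings. The cause was not tested. Leaving out an array would leave no residual degree of freedom, so it was not run. No paired analysis was possible because each group has 1 array.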

Other observations

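NOB1 stands beside NQO1, a quinone reductase known as an NRF2 target, in the gene order of RefSeq's German Shepherd assembly. NQO1 was looked up after the value of NOB1 was seen. NQO1 read 3541 in labelled KD hypoxia against 6496 in labelled WT hypoxia, and 2703 in labelled KD normoxia against 6025 in labelled WT normoxia. Its KD minus WT differences, -0.87 in hypoxia and -1.15 in normoxia, were close in size to those of NOB1 (-0.71 and -0.91), and it fell by 1.01 in the limma genotype term (SE 0.07, adjusted p = 0.000258). The next protein-coding genes on either side differed less, with 0.03 in hypoxia and 0.06 in normoxia for NFAT5 and -0.11 and -0.25 for WWP2.

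NIP7 lies a few genes further along in the same order. Its neighbour COG8, a Golgi tethering subunit, gave -0.26 in hypoxia and -0.34 in normoxia (adjusted p = 0.168 by limma), while VPS4A beyond it gave 0.18 and 0.22. On the other side TMED6 gave 0.10 in hypoxia and -0.14 in normoxia (adjusted p = 0.948 by limma), and TERF2 beyond it gave 0.12 and 0.15. Whether these values are linked was not tested.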
